A study of Mus musculus with 8 samples.

Results

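The interferon-inducible GTPases are a set of host defence enzymes that cells make in quantity after interferon. Transcripts of 6 of them, Gbp2, Gbp3, Igtp, Iigp1, Irgm1 and Irgm2, were examined among 18194 genes on Affymetrix Mouse Genome arrays. The 6 symbols were listed by name and each gene was read from the brightest of its single-symbol probe sets, by mean over the 8 arrays, and all 6 had one. The cells were 3T3-L1 adipocytes, a clonal mouse fibroblast line differentiated into fat cells in culture, given 1 of 3 treatments that induce insulin resistance. The TNF model used the inflammatory cytokine tumour necrosis factor (3 arrays), the Dex model used dexamethasone, a synthetic glucocorticoid (3 arrays), and the CI model used chronic insulin (2 arrays). Every sample also received MnTBAP, a manganese porphyrin antioxidant, for the final 6 hours. Cells without a model treatment or without MnTBAP were not analysed here, so each value compares the models with one another under the antioxidant. By the paper's account of earlier work, MnTBAP restored the insulin response (movement of a glucose transporter to the cell surface) in each model. The insulin response is not part of these data, so the arrays are not taken as those of insulin-resistant cells. The labels give no doses and do not state whether arrays of a model were separate cultures, so p-values reflect the spread among these arrays alone, part or all of which may be technical.

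The GTPases belong to the immunity-related GTPases (IRGs) and the guanylate-binding proteins (GBPs), which in mice are induced by interferon gamma and by type I interferons. Both families restrict intracellular pathogens such as Toxoplasma and Chlamydia by loading onto the membrane of the vacuole in which the pathogen lives. Iigp1 (Irga6) is an effector IRG of this kind. Irgm1, Irgm2 and Igtp (Irgm3) are regulatory IRGs, which sit on the cell's own membranes and hold the effectors in their inactive form. Gbp2 and Gbp3 are GBPs, larger GTPases of the dynamin type. Type I interferon signals through JAK kinases to a complex with STAT2 and IRF9 that binds the interferon-stimulated response element (ISRE), and interferon gamma acts in part through the gamma-activated site (GAS).

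The promoters are shown first because members of both families carry the ISRE letters close to their start sites. RefSeq promoter sequence (GRCm38.p6, 250 bases before to 50 after each start) was matched for 5 of the 6 genes, Gbp2, Gbp3, Igtp, Irgm1 and Irgm2, with 2 promoters for Gbp3. Iigp1 had no entry. The ISRE was searched on both strands as GAAA, any 2 bases and GAAA again, and the capitals below mark each match with 25 bases on either side, cut short at the start site, written 5′ to 3′ on the strand of the gene.
Gbp2, plus strand, chr3:142620579-142620638: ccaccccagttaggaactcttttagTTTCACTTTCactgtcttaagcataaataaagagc
Gbp3, plus strand, chr3:142559974-142560039: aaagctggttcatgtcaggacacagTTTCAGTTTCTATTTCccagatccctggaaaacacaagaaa
Igtp, plus strand, chr11:58199497-58199555: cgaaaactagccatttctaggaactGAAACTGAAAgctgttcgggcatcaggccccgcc
Irgm1, minus strand, chr11:48871421-48871475: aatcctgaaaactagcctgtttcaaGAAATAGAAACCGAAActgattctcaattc
Irgm2, plus strand, chr11:58214888-58214947: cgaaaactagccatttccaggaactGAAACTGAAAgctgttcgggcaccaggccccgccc

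All 5 matched genes held the ISRE letters in a promoter, against 3.99% of the 27025 genes in the table. Only 1 of the 2 Gbp3 promoters held them, so the count by promoter was 5 of 6, against 3.44% of 32851 promoters. The matches lay between 64 and 15 bases before the start site in every case. Igtp and Irgm2 carried the same 10 letters, and their promoters were alike beyond the motif, with 247 of 264 aligned bases identical (93.6%), so they are not separate examples. Gbp3 and Irgm1 each held a pair of overlapping matches. The GAS, searched as TTCNNNGAA, was found in Igtp and Irgm2 only, just upstream of the ISRE letters, against 9.55% of all genes. The NF-kB motif was found in Gbp2 alone, 8 to 17 bases after the start site (9.55% of all genes), and the glucocorticoid receptor element, searched as GNACA, any 3 bases and TGTNC, in none of the 5 (0.537% of all genes). These are matches of letters, and binding was not measured. Among the other listed IRG and GBP genes, measured on the arrays or not, 6 had an entry and 5 of these held the ISRE letters. Among 16 interferon-stimulated antiviral genes with an entry 10 did.

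The level of each gene is given as log2 of the deposited intensity, so a difference of 1 is a doubling. Iigp1, the effector IRG, varied most. It read 11.88, 10.19 and 10.44 in the TNF arrays (10.84 ± 0.91, SD, n = 3), 8.96, 8.43 and 7.73 in the Dex arrays (8.37 ± 0.62, n = 3) and 12.62 and 12.58 in the CI arrays (12.60 ± 0.03, n = 2). On the linear scale these were intensities of 3767, 1171 and 1387 in TNF, 498, 346 and 212 in Dex, and 6291 and 6109 in CI. The 3 models did not overlap, although the TNF arrays themselves were spread, with replicate 1 close to CI and the other 2 well below it. A second Iigp1 probe set gave the same order, with 10.05, 8.64 and 8.73 in TNF, 7.07, 6.68 and 5.93 in Dex, and 11.02 and 10.99 in CI.

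The regulatory IRGs followed the same order of CI, TNF and then Dex. Irgm2 read 10.32, 8.86 and 9.43 in TNF (9.54 ± 0.74, n = 3), 8.45, 8.20 and 7.71 in Dex (8.12 ± 0.38, n = 3) and 11.17 and 11.11 in CI (11.14 ± 0.04, n = 2). Igtp read 10.45, 9.55 and 9.74 in TNF (9.91 ± 0.48), 9.01, 8.71 and 8.68 in Dex (8.80 ± 0.18) and 11.49 and 11.45 in CI (11.47 ± 0.03). For both genes the lowest TNF array stood above the highest Dex array, by 0.40 for Irgm2 and 0.53 for Igtp. Irgm1 was less variable, at 10.56, 9.97 and 10.10 in TNF (10.21 ± 0.31), 9.08, 9.00 and 8.88 in Dex (8.99 ± 0.10) and 10.97 and 10.92 in CI (10.95 ± 0.04). Its 3 models were again separate, with the nearest TNF and CI arrays 0.36 apart.

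The GBPs had the smallest spread among the TNF arrays. Gbp3 read 11.01, 10.77 and 10.90 in TNF (10.89 ± 0.12), 9.48, 9.04 and 9.45 in Dex (9.32 ± 0.25) and 11.82 and 11.90 in CI (11.86 ± 0.06). Its TNF arrays lay between the other models and apart from both. Gbp2 read 11.46, 11.11 and 11.35 in TNF (11.31 ± 0.18), 9.28, 9.23 and 9.33 in Dex (9.28 ± 0.05) and 11.51 and 11.63 in CI (11.57 ± 0.08). For Gbp2 the TNF and CI arrays were next to each other, with a gap of only 0.05 between the nearest pair, while the Dex arrays stood far below. Its second probe set read 10.85, 10.54 and 10.74 in TNF, 8.88, 8.85 and 8.85 in Dex, and 10.98 and 11.07 in CI.

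**Figure D1:**
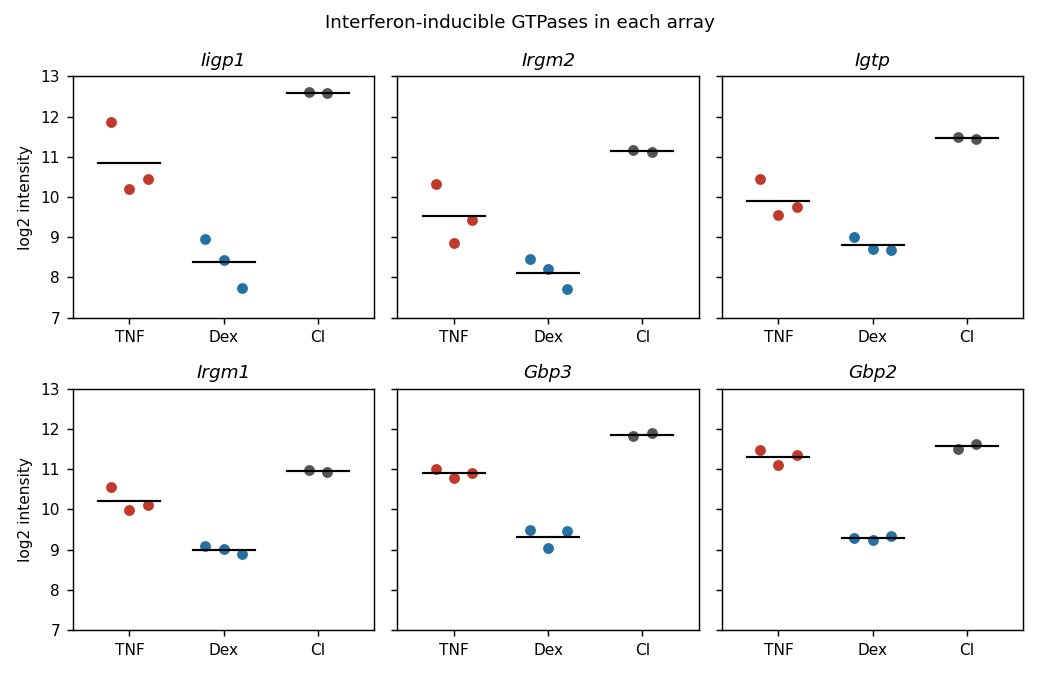
Log2 intensity of the 6 GTPase genes in each array (points) with the mean of each model (line), for TNF (n = 3), Dex (n = 3) and CI (n = 2), on a shared axis that starts at 7. In every panel Dex is lowest and CI highest, and for Gbp2 the TNF points at 11.11 to 11.46 lie just under the CI points.

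Dexamethasone was next compared with chronic insulin. All 6 GTPases were lower in Dex, in a count set against 5.67% of all genes called lower and 3.33% called higher (9.00% in either direction). Genes were called at an adjusted p under 0.05 and a log2 difference over 0.5, with limma fitted over all genes. The RNA is that of a whole culture, so fewer cells making a transcript and less of it per cell cannot be told apart. Iigp1 differed most, by -4.22 ± 0.43 (SE; limma adjusted p = 3.59e-05), which is 18.7-fold lower. Irgm2 was 8.14-fold lower (-3.02 ± 0.33), Igtp 6.34-fold (-2.66 ± 0.21) and Irgm1, the least, 3.88-fold (-1.96 ± 0.14). The GBPs lay inside this range, with Gbp3 5.80-fold lower (-2.54 ± 0.13) and Gbp2 4.89-fold (-2.29 ± 0.10; limma adjusted p = 9.11e-08). The members' median difference was -2.60, against 0.02 over all genes. No array of Dex overlapped an array of CI for any of the 6, and 48.0% of all genes did not overlap between these models (23.1% with every Dex array below every CI array). All 6 calls were made in every alternative setting run.

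TNF against CI gave a smaller and less even difference, and it shares the 2 CI arrays with the comparison just given. Lower levels in TNF were called for 5 of the 6, against 5.23% of all genes called lower and 3.00% called higher (8.22% in either direction), with a median of -1.26 over the members and 0.03 over all genes. Iigp1 was 3.39-fold lower (-1.76 ± 0.43, limma adjusted p = 0.0131), Irgm2 3.05-fold (-1.61 ± 0.33, adjusted p = 0.0049) and Igtp 2.94-fold (-1.55 ± 0.21, adjusted p = 0.000392). Gbp3 was 1.95-fold lower (-0.97 ± 0.13) and Irgm1 1.66-fold (-0.73 ± 0.14). Gbp2 was not called, with a difference of -0.26 ± 0.10 (limma adjusted p = 0.0865) and a 95% interval from -0.48 to -0.04. Its second probe set had an adjusted p of 0.0417 in a limma fit with every probe set as a feature, but its difference of -0.32 was below the limit. For all 6 genes the TNF arrays lay below the CI arrays without overlap, as in 24.7% of all genes (53.0% separated in either direction). The call for Iigp1 rested on few arrays, as it disappeared when CI replicate 1 (limma adjusted p = 0.0732), CI replicate 2 (0.081) or TNF replicate 3 (0.0502) was left out, while the difference stayed between -2.28 and -1.44 whichever array was left out.

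**Figure D2:**
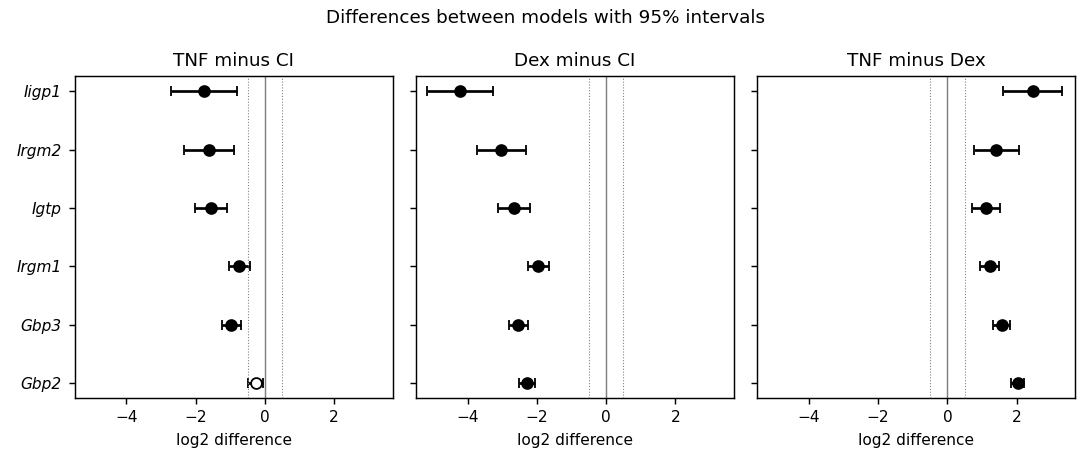
Log2 difference of each GTPase gene for TNF minus CI (left), Dex minus CI (middle) and TNF minus Dex (right), from the limma fit over all genes, with 95% confidence intervals (bars). Filled points were called, the open point (Gbp2, TNF minus CI, -0.26) was not, and the dotted lines mark a difference of 0.5 in either direction.

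All 6 GTPases were higher in TNF than in Dex, against 4.14% of all genes called higher and 3.16% called lower (7.30% in either direction). The order of the genes was not that of the other comparisons. Iigp1 was again first, 5.51-fold higher in TNF (2.46 ± 0.39, limma adjusted p = 0.000828), but Gbp2 came next at 4.08-fold (2.03 ± 0.09, adjusted p = 4.95e-08), then Gbp3 at 2.97-fold (1.57 ± 0.11) and Irgm2 at 2.67-fold (1.42 ± 0.29). Irgm1 was 2.33-fold higher (1.22 ± 0.13) and Igtp 2.16-fold (1.11 ± 0.19, adjusted p = 0.00135). The median was 1.49 over the members and 0.01 over all genes. The arrays of the 2 models did not overlap for any member, as in 35.9% of all genes, and all 6 calls were made in every alternative setting run.

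The place of TNF between the other 2 models therefore differed from gene to gene, and it is given here as a description with no test between genes. Counting the CI mean as 0% and the Dex mean as 100% of the log2 gap, the TNF mean lay at 11.5% for Gbp2, 37.5% for Irgm1, 38.1% for Gbp3, 41.7% for Iigp1, 53.2% for Irgm2 and 58.3% for Igtp. Gbp2 thus stayed nearest to CI, and the close relatives Igtp and Irgm2 went furthest towards Dex. The TNF arrays kept one order across the genes: replicate 1 was the highest and replicate 2 the lowest for 6 of 6. For Iigp1 replicate 1 lay at 17.0%, replicate 2 at 56.9% and replicate 3 at 51.1%, and for Irgm2 they lay at 27.3%, 75.6% and 56.6%. For Gbp3 they were closer together, at 33.5%, 42.9% and 37.9%. In Dex, replicate 3 was lowest for 4 of the 6 genes, all of them IRGs.

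**Figure D3:**
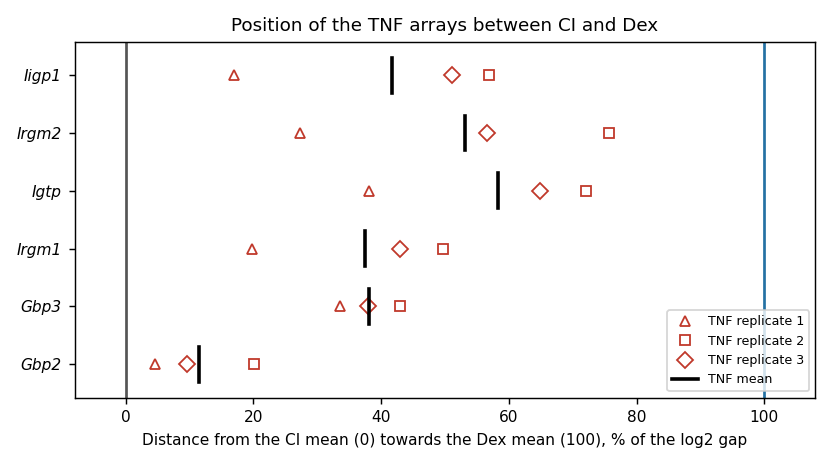
Position of each TNF array (symbols) and of the TNF mean (bar) between the CI mean at 0% and the Dex mean at 100%, as a share of the log2 gap of each gene. Gbp2 lies nearest to CI with a mean of 11.5% and Igtp furthest towards Dex at 58.3%, and TNF replicate 1 is the closest to CI in every row.

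The remaining IRG and GBP genes were then read, of which 6 of the 14 listed had a probe set with a single symbol. The GBPs Gbp6 and Gbp7 and the IRG Ifi47 (Irgd) were the ones with large differences. Gbp6 read 12.05, 11.51 and 11.77 in TNF, 9.03, 9.03 and 8.84 in Dex, and 11.90 and 11.89 in CI, so TNF and CI overlapped and Dex stood apart. Ifi47 read 10.68, 9.54 and 9.91 in TNF, 8.58, 7.98 and 7.66 in Dex, and 10.65 and 10.73 in CI, with TNF replicate 1 among the CI arrays. Gbp7 read 10.58, 10.00 and 10.30 in TNF, 8.97, 8.71 and 8.37 in Dex, and 10.86 and 10.79 in CI, which were separate. In Dex minus CI these 3 were lower (Gbp6 -2.93 ± 0.13, Ifi47 -2.62 ± 0.30, Gbp7 -2.14 ± 0.17) and none of the 6 was higher. In TNF minus Dex 5 of the 6 were higher, against 4.14% of all genes. They were Gbp6 by 2.81 ± 0.12, Ifi47 by 1.97 ± 0.26, Gbp7 by 1.61 ± 0.16, Gbp8 by 0.91 ± 0.12 and Gbp2b by 0.57 ± 0.09. Of these calls, that of Gbp8 was lost with 16 added to each intensity before the logarithm (0.48) and that of Gbp2b without TNF replicate 1 (0.49).

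TNF minus CI separated this remainder less clearly. Gbp7 was lower (-0.53 ± 0.17, limma adjusted p = 0.0482) and Gbp8 higher (0.64 ± 0.13), both with calls that single arrays decided. Gbp7 was not called without any one of 5 arrays, namely both CI arrays, TNF replicates 2 and 3 and Dex replicate 2, nor after quantile normalization (-0.45). Its call was also lost with the replicate number as a block (-0.46), a trended, robust prior (limma adjusted p = 0.0671) and 16 added to each intensity before the logarithm (limma adjusted p = 0.0526). With a beta-actin measure of RNA quality, given below, as a covariate, the difference was -0.35 (limma adjusted p = 0.276). Gbp8 was not called without CI replicate 1 or with 16 added to each intensity before the logarithm (0.35). Gbp6 (-0.12 ± 0.13), Ifi47 (-0.64 ± 0.30, adjusted p = 0.144), Gbp2b (0.22 ± 0.10) and Irgc1 (-0.11 ± 0.08) were not called, and without TNF replicate 1 Ifi47 was (-0.96, limma adjusted p = 0.0106). Gbp8 was dim throughout, between 4.48 and 4.66 in TNF, 3.53 and 3.99 in Dex and 3.88 and 4.05 in CI, and no background reading was at hand to set it against. Irgc1, an IRG known from testis rather than from the interferon response, was called in none of the 3 comparisons. Related IRG and GBP transcripts are similar in sequence, and whether the probes of one also bind another was not checked.

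**Figure D4:**
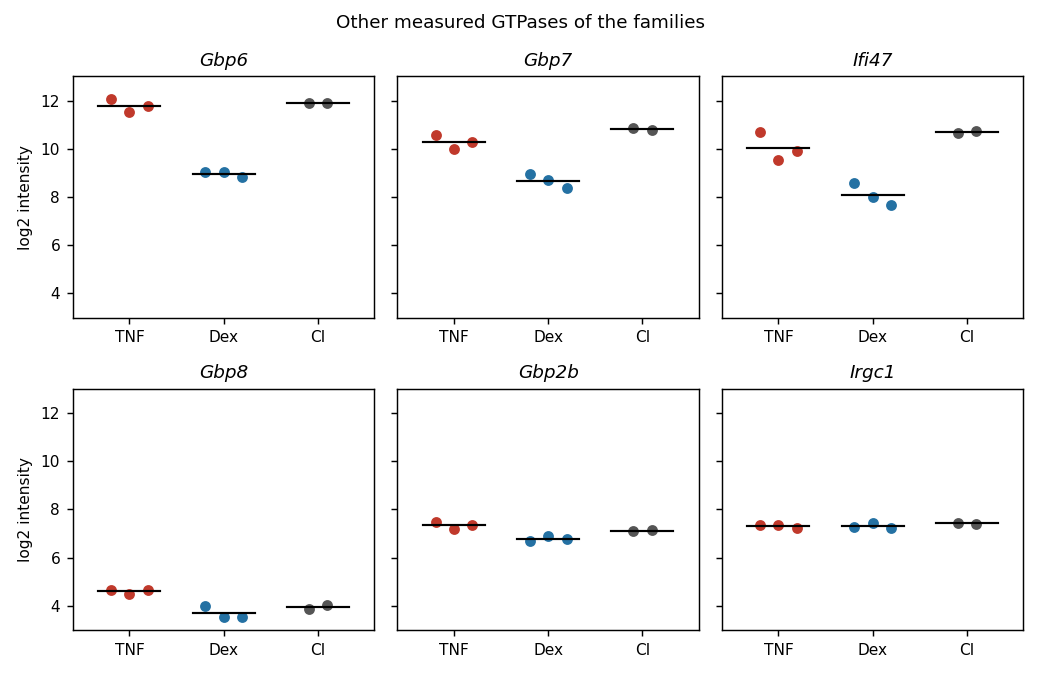
Log2 intensity of the 6 other measured IRG and GBP genes in each array (points) with the mean of each model (line), for TNF (n = 3), Dex (n = 3) and CI (n = 2). Gbp6, Gbp7 and Ifi47 are lowest in Dex, Gbp6 has overlapping TNF and CI points at 11.51 to 12.05, and Irgc1 lies between 7.22 and 7.44 in all arrays.

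Transcripts of interferons, their receptors and transducers were read next in lists. They are RNA levels, so the signal that reached the GTPase genes was not measured. Neither interferon gamma nor interferon beta transcripts passed the test, with Ifng at -0.12 ± 0.08 and Ifnb1 at 0.04 ± 0.08 in TNF minus CI, and -0.01 and -0.10 in Dex minus CI. Ifng was dim, at 4.47 to 4.65 in TNF, 4.57 to 4.76 in Dex and 4.65 to 4.69 in CI, with no background reading to set it against, so these values do not show that the ligand was unchanged. Of the 6 ligands and receptors, 1 was called in TNF minus CI, against 8.22% of all genes. It was Ifnar2, a chain of the type I receptor (0.55 ± 0.08, higher). The call was lost with arrays centred on their medians (0.50, just below the limit) and with the beta-actin covariate (0.48). None was called in Dex minus CI, against 9.00% of all genes. Ifnar2 was also higher in TNF than in Dex (0.99 ± 0.07), and Ifngr1, a chain of the interferon gamma receptor, was lower (-0.51 ± 0.14, limma adjusted p = 0.0213). Of all genes 7.30% were called in this comparison. The Ifngr1 call was lost without TNF replicate 2, TNF replicate 3 or Dex replicate 1. It was also lost after quantile normalization (-0.48) and with the beta-actin covariate (-0.47, limma adjusted p = 0.173).

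Among the transducers Irf9 and Stat2 were called in the comparisons of TNF and of Dex with CI. Which interferon acted, if any, was not tested. Irf9, the DNA-binding partner of STAT2, read 9.44, 8.66 and 8.79 in TNF, 8.49, 8.21 and 8.04 in Dex, and 10.19 and 10.17 in CI. Those levels followed the order of the GTPases, and Irf9 was lower in TNF (-1.22 ± 0.19) and in Dex (-1.93 ± 0.19) than in CI. Stat2 was lower in Dex minus CI (-1.55 ± 0.26) and in TNF minus CI (-0.98 ± 0.26, limma adjusted p = 0.02), where its call was lost without CI replicate 1, CI replicate 2, TNF replicate 2 or TNF replicate 3. It was also lost with a trended, robust prior (limma adjusted p = 0.083). With a beta-actin measure of RNA quality, given below, as a covariate, the difference was -0.71 (limma adjusted p = 0.148). In TNF minus Dex Stat2 was not called (0.56 ± 0.24, limma adjusted p = 0.121). Irf7, which amplifies type I interferon, was lower in Dex than in CI (-1.86 ± 0.15), as was Nlrc5, the activator of class I genes (-1.04 ± 0.11), and neither was called in TNF minus CI. Jak2, a kinase of the interferon gamma receptor, was higher in TNF than in CI (0.90 ± 0.14) and than in Dex (0.75 ± 0.13). Irf1, through which interferon gamma acts on many GBP genes, read 11.22, 10.68 and 10.87 in TNF, 10.83, 10.83 and 10.55 in Dex, and 10.87 and 11.10 in CI. It was called in no comparison (-0.06 ± 0.15 in TNF minus CI, -0.25 ± 0.15 in Dex minus CI and 0.19 ± 0.13 in TNF minus Dex). Of 13 measured transducers 3 were called in TNF minus CI (1 higher, 2 lower), 4 in Dex minus CI (all lower) and 4 in TNF minus Dex (all higher). Over all genes the shares called in either direction were 8.22%, 9.00% and 7.30%.

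Among 8 feedback inhibitors of the pathway Usp18, a protease that removes ISG15 and blocks the type I receptor, was called throughout. It read 11.07, 9.71 and 9.99 in TNF, 8.81, 8.54 and 8.34 in Dex, and 12.37 and 12.35 in CI, with TNF replicate 1 the highest of its model as for the GTPases. It was lower in TNF (-2.11 ± 0.30) and in Dex (-3.80 ± 0.30) than in CI. Socs1, which restrains JAK kinases, was not called (-0.17 ± 0.08 in TNF minus CI and -0.26 ± 0.08 in Dex minus CI). Cish, another SOCS family member, was higher in TNF than in CI (0.52 ± 0.13), without the call when CI replicate 2 or TNF replicate 3 was left out. The call was also lost with arrays centred on their medians (0.48), with the replicate number as a block (0.43) and with the beta-actin covariate (0.31).

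Targets of interferon other than the GTPases were read in 2 lists. In the list of antiviral genes, of which 18 of 20 were measured, all 18 were lower in Dex than in CI (median -2.26), 12 were lower in TNF than in CI (median -0.98) and 15 were higher in TNF than in Dex. Of all genes 5.67%, 5.23% and 4.14% were called in these directions. Ifit1, which binds viral RNA, was lower by -2.04 ± 0.44 in TNF minus CI and -4.47 ± 0.44 in Dex minus CI, and Rsad2 (viperin) by -2.16 ± 0.21 and -3.05 ± 0.21. The 2',5'-oligoadenylate synthetase gene Oas1a, like Gbp2, differed little between TNF and CI, with 0.09 ± 0.08 in TNF minus CI and -2.27 ± 0.08 in Dex minus CI. The count of 12 in TNF minus CI was 7 without CI replicate 1 and 5 without CI replicate 2, where Ifit1 lost its call too (limma adjusted p = 0.0574). With the beta-actin covariate Ifit1 (-1.64, limma adjusted p = 0.0597), Ifit3, Oasl2, Ddx58, Rtp4, Xaf1, Cmpk2 and Trim30a lost the TNF minus CI call. Rsad2, Ifih1, Dhx58 and Eif2ak2 kept it. With a trended, robust prior the same genes except Rtp4 and Xaf1 lost it. Mx1 and Mx2, interferon-induced GTPases of the dynamin type outside the GBPs, were both lower in Dex than in CI (-2.64 ± 0.19 and -1.83 ± 0.10). In TNF minus CI Mx2 was lower (-0.86 ± 0.10) and Mx1 was not called (-0.51 ± 0.19, limma adjusted p = 0.0747).

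In the list of 17 genes linked to interferon gamma, which holds Irf1 and Socs1 as well, TNF minus CI ran in both directions. The chemokine Cxcl9 read 9.37, 9.15 and 9.18 in TNF, 6.82, 6.85 and 6.74 in Dex, and 7.87 and 7.73 in CI. It was thus highest in TNF, 1.43 ± 0.09 above CI, whereas none of the 6 GTPases was highest in TNF. Psmb10, a subunit of the immunoproteasome, and Tapbp, which loads peptide on class I molecules, were also higher in TNF than in CI (0.78 ± 0.09 and 0.57 ± 0.08). The related chemokine Cxcl10 read 9.94, 8.35 and 8.65 in TNF, 6.63, 6.07 and 6.17 in Dex, and 10.53 and 10.59 in CI. It followed the GTPases and was lower in TNF than in CI (-1.58 ± 0.35, limma adjusted p = 0.00831). That call was lost without CI replicate 2 (-1.55), with the beta-actin covariate (-1.46, limma adjusted p = 0.0554) and with a trended, robust prior (limma adjusted p = 0.0605). In Dex minus CI 7 of the 17 were lower and none higher, against 5.67% and 3.33% of all genes. The largest differences were those of Cxcl10 at -4.27 ± 0.35, Psmb9 at -1.71 ± 0.09, Tap1 at -1.38 ± 0.15 and Psmb8 at -1.32 ± 0.09. The value for Tap1 rested on 1 of its 4 probe sets, and with all 4 averaged it was -0.37 and not called. In TNF minus Dex 10 were higher, against 4.14% of all genes, with Cxcl10 at 2.69 ± 0.32 and Cxcl9 at 2.43 ± 0.08. Autophagy genes were read because IRG and GBP loading in mice depends on autophagy conjugation genes. The list also holds Becn1 and Sqstm1, which are not conjugation genes. In TNF minus CI 1 of 12 was called (Atg3, -0.54, and -0.47 without the call after quantile normalization), against 8.22% of all genes. In Dex minus CI 2 of the 12 were called (Gabarapl1, 0.87, and Map1lc3b, 0.71), against 9.00% of all genes.

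**Figure D5:**
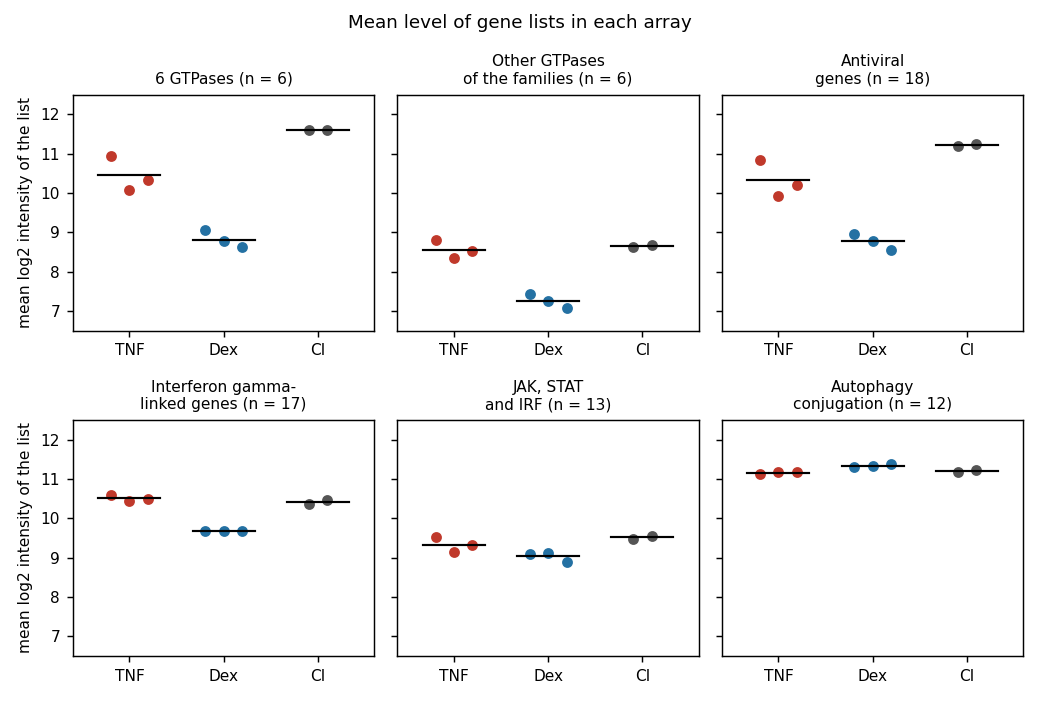
Mean log2 intensity over the genes of 6 lists in each array (points) with the mean of each model (line), for TNF (n = 3), Dex (n = 3) and CI (n = 2), with the number of measured genes above each panel. The 6 GTPases range over 10.08 to 10.95 in TNF, 8.63 to 9.05 in Dex and 11.60 in both CI arrays, and the antiviral genes are in the same order of models.

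The genes with the pattern most like the mean of the 6 GTPases were ranked by Pearson's r over the 8 arrays among 9091 genes at or above the median level. They were Rtp4 (r = 0.998), Gm20559 (0.998), Cxcl10 (0.997), Trim21 (0.997) and Tlr3 (0.996). The 8 arrays fall into 3 models, so r mostly follows the steps between models. Sizes differed although patterns were alike, with Rtp4 at -1.27 in TNF minus CI and -3.16 in Dex minus CI, Tlr3 at -0.92 and -1.95, and Trim21 at -0.34 and -0.89.

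The arrays were close in overall level, and genes induced by TNF and by glucocorticoid were high in the TNF and Dex arrays, while no marker of chronic insulin was read to check the CI label. Array medians lay between 124.7 and 130.97 intensity units, and log2 values of all probe sets correlated at 0.9958 to 0.9978 within models and 0.9856 to 0.9911 between them. Saa3, an acute phase gene that TNF induces, averaged 14.11 in TNF, 8.92 in Dex and 8.93 in CI, and Fkbp5, induced by glucocorticoid, 10.44 in TNF, 13.09 in Dex and 10.12 in CI. Adipocyte markers averaged 12.99 to 13.04 in TNF, 13.26 to 13.36 in Dex and 13.47 to 13.48 in CI over 9 of 10 listed genes. Macrophage and leukocyte markers averaged 7.15 to 7.23 in TNF, 7.03 to 7.10 in Dex and 6.99 to 7.02 in CI over 17 of 18, of which Cd14 (1.44) and Lyz2 (0.55) were higher in TNF than in CI and Cd14 (0.98) in Dex, while Ptprc, the pan-leukocyte marker, lay between 4.46 and 4.77 in all arrays. For beta-actin the 3′ probe set minus the 5′ one, a sign of RNA quality, gave 0.74, 0.71 and 0.83 in TNF, 0.49, 0.49 and 0.75 in Dex, and 0.66 and 0.54 in CI. With it as a covariate in the fit, the GTPases called were 4 in TNF minus CI, without Iigp1 (-1.27, limma adjusted p = 0.112), and 6 in each of the other comparisons. The part of the leukocyte markers in the results was not tested.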

How the data were processed

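RNA from 8 samples of 3T3-L1 adipocytes was hybridised to Affymetrix whole-genome mouse arrays. The authors deposited linear intensities, 1 for each probe set and array. The study's methods name RMA in affyPLM, but whether the deposited intensities are RMA values with the logarithm removed is not stated. The design had assumed log2 values, so the values were first converted to log2, with nothing added, before the same test. Precision is limited by the number of arrays. Of 45101 probe sets, 34958 had 1 symbol in GEO's platform annotation, 932 several and 9211 none. Each of the 18194 genes was represented by its single-symbol probe set with the highest mean log2 value over the arrays, and 9012 had more than 1.

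The 3 models, taken from the sample titles, were fitted together with limma 3.58.1 in R 4.3.3 (lmFit, eBayes, two-sided, Benjamini-Hochberg over all genes), and a call needed both an adjusted p below 0.05 and a log2 difference larger than 0.5 in size. The fit was tested on simulated data. The members and gene lists were chosen with earlier results of these data known, so counts over lists are descriptions. Named were all 6 members, the other measured IRG and GBP genes, up to 4 called genes of each list with the largest differences, the 5 genes most alike and label checks. Irf1, Ifng, Ifnb1, Socs1, Oas1a, Mx1 and Ptprc were named beside this rule for their roles, with their values known. Listed symbols without a single-symbol probe set were not analysed here. Preadipocyte markers (7 of 8 measured) gave 1 higher in TNF minus CI, 2 lower in Dex minus CI and 4 higher in TNF minus Dex. Adipocyte markers gave 5 lower, 2 lower and 2 lower in the same comparisons. Of all genes 8.22%, 9.00% and 7.30% were called in either direction in these comparisons. Among the preadipocyte markers, the call of Pdgfra in TNF minus Dex (0.72, limma adjusted p = 0.0409) was lost without any one array other than TNF replicate 2. The calls of Dlk1 were lost with its probe sets averaged (-0.41 in Dex minus CI and 0.34 in TNF minus Dex). Promoters were searched with Biopython 1.88 in Python 3.11.15, and genome coordinates are those of the RefSeq promoter table. The alternatives were other scalings, filters, probe set rules, thresholds, covariates, eBayes settings, and leaving out each array.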

Additional observations from a re-analysis of the deposited data

How the results depend on the processing

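Of the values of each member and comparison under each alternative, 371 kept their direction and their side of the threshold, 7 kept the direction but lost the call, and none reversed. Called members numbered 6 in Dex minus CI and 6 in TNF minus Dex under every alternative, and 4 to 5 in TNF minus CI when each array was left out. The count in TNF minus CI was 3 with a limit of 1 on the log2 difference, which Gbp3 (-0.97) and Irgm1 (-0.73) do not reach, and 4 with a trended, robust prior, where Iigp1 had a limma adjusted p of 0.0797. In the order TNF minus CI, then Dex minus CI, then TNF minus Dex, genes called in all numbered 1496, 1637 and 1328, against 2992, 3305 and 2583 with every probe set as a feature, 4181, 3926 and 3801 with no limit on the difference, and 258, 423 and 342 with a limit of 1. Leaving out each array gave 1237 to 1605, 1552 to 1795 and 1284 to 1420. In TNF minus CI the split was 545 higher and 951 lower, against 634 higher and 724 lower after quantile normalization. Median centring moved it the other way, to 443 higher against 1180 lower, and members called numbered 5 under both scalings.

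Whether the replicate numbers of the titles pair the arrays could not be settled. Deviations of same-numbered arrays from their model means correlated at 0.05, 0.02, -0.06, -0.02, 0.33, -0.09 and 0.21. Between TNF and Dex, differently numbered arrays gave -0.38 to 0.28. Deviations cancel out within a model of 2 or 3 arrays, so these values are tied to one another and cannot exclude pairing. With the replicate block the members called were 5, 6 and 6 and all genes called 1534, 1730 and 1339, so no call of a member changed. In TNF minus CI the block lowered the SE of every member but Gbp2, for Iigp1 from 0.43 to 0.28 (difference -1.50, limma adjusted p = 0.00515). With 2 or 3 arrays a model, one array sets much of each spread, as in Iigp1, where the TNF arrays spanned 10.19 to 11.88.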
